A study of Homo sapiens with 6 samples.

Results

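Metallothioneins and the genes that handle zinc around them were followed in HCT116, a human cell line set up from a colorectal carcinoma, to ask whether overexpression of the small nucleolar RNA SNORA28 moved them. The set was fixed by name and holds 7 of the 60612 genes listed per library: the metallothioneins MT1E, MT1F, MT1G, MT1X and MT2A, the zinc-sensing transcription factor MTF1 and the zinc exporter SLC30A1. Bulk RNA was sequenced in 6 libraries, 3 from HCT116 cells infected with a negative control lentivirus (LV-NC) and 3 from HCT116 cells infected with a lentivirus that carries SNORA28 (LV-SNORA28). Both groups share the cell line and a lentiviral infection. The methods for these libraries have cells collected after the same period of infection in both groups, while the design text speaks of established lines and the methods elsewhere of puromycin selection, and which applies to these libraries was not settled here. It is not stated whether the 3 libraries of a group came from separate infections or clones, so p-values measure only the spread between these libraries, which may be technical. Values are FPKM as deposited, a fragment count per length of transcript and per mapped fragments of its library.

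Metallothioneins are small cysteine-rich proteins that bind zinc, copper and cadmium and buffer free zinc in the cytosol. When free zinc rises, MTF1 binds metal response elements in the promoters of metallothionein genes and of SLC30A1, which moves zinc out across the plasma membrane. Metallothionein transcripts are therefore commonly read as a report of metal load, and they also respond to glucocorticoids and to oxidative stress.

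The promoters were read first, for the letters that MTF1 is known to bind. Of the 7 genes, 4 were matched in the RefSeq promoter table (GRCh38.p14), namely MT2A, MT1X, SLC30A1 and MTF1. MT1E, MT1F and MT1G were not matched. The 250 bases before the start were searched on both strands for the core of the metal response element, spelled TGCACNC and TGCGCNC, where N is any base. The sequences below are shown because MT2A, MT1X and SLC30A1 carry the core in different numbers. Each is written 5′ to 3′ on the strand of its gene, in lower case, with every core in capitals, and no cores overlap. They lie at chr16:56608334-56608583 (plus strand, MT2A), chr16:56682220-56682469 (plus strand, MT1X) and chr1:211579162-211579411 (minus strand, SLC30A1).
MT2A: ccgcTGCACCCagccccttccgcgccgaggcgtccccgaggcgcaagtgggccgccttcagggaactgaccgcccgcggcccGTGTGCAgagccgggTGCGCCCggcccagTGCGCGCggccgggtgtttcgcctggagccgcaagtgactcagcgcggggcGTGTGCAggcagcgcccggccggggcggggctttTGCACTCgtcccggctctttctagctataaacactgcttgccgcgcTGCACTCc
MT1X: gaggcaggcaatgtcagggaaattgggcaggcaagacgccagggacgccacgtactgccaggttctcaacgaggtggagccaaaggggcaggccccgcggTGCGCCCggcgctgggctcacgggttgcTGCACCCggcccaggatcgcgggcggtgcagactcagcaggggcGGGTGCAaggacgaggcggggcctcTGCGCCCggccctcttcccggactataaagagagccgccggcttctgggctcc
SLC30A1: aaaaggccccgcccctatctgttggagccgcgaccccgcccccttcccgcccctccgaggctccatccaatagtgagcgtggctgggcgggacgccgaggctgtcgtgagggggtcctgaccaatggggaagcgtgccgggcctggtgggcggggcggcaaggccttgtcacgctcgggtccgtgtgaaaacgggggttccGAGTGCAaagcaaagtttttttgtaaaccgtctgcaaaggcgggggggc

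The MT2A window held 7 cores, 5 of the form TGCACNC and 2 of the form TGCGCNC. MT1X held 4 and SLC30A1 held 1. The same letters were not in the window of MTF1 (chr1:37859593-37859842, minus strand). Among all 35116 promoters in the table, 24.8% held at least 1 core, 0.37% at least 4 and 0.0313% at least 7. A match describes the sequence only.

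The labels were checked against the targeted RNA. The SNORA28 gene had FPKM of 0.92, 0 and 0.64 (LV-NC) against 15.01, 13.66 and 15.2 (LV-SNORA28), in the direction of the labels. The RNA was poly(A)-selected, and whether these reads came from the mature small nucleolar RNA or from a longer transcript was not tested. SNORA28 overlaps EIF5 on the same strand, which was at 11.6 and 15.4 FPKM on average. Between 24231 and 25771 genes were above 0 per library. The share of summed FPKM from the mitochondrial genome was 44.4% ± 2.83 for LV-NC against 37.3% ± 1.25 for LV-SNORA28 (SD, n = 3 each), without overlap. The median log2 fold change of the 12076 genes tested was 0.09. With FPKM rescaled to the sum outside the mitochondrial genome, the log2 fold changes of MT2A, MT1F, MTF1 and SLC30A1 were 0.23, 0.37, 0.44 and 0.15. Of 7 markers of colon epithelium, EPCAM, CDH1, KRT8, KRT18, KRT19 and CDX2 were expressed, and VIL1 was at or near 0, with at most 0.04 FPKM. The summed level of 8 markers of blood cells, fibroblasts and endothelium ranged from 4.27 to 6.63 FPKM in LV-NC and from 6.46 to 7.38 FPKM in LV-SNORA28, with overlap. It came nearly all from CD68 and COL1A1, with PTPRC, CD3E, COL1A2, COL3A1, PECAM1 and VWF at or near 0. CD68 had FPKM of 2.07, 2.06 and 0.95 (LV-NC) against 2.27, 4.12 and 3.14 (LV-SNORA28), and its part in the results was not tested.

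Metallothionein expression in these cells rested on MT2A and MT1E, and neither differed between the groups beyond the spread of the libraries. MT1X did not differ beyond that spread either. MT1F, MTF1 and SLC30A1 were higher in all 3 LV-SNORA28 libraries than in any LV-NC library, and none of them passed the test over all genes. Their ratios of mean FPKM were 1.59, 1.5 and 1.15. MT1G was listed at 0 in all 6 libraries. In limma 0 of the 6 members tested had an adjusted p below 0.05, where 8.91% of all genes tested did (1076 of 12076), 6.81% higher (822 genes) and 2.10% lower (254 genes) in LV-SNORA28. That split was 451 higher and 375 lower under quantile normalization, and 351 and 299 with GC and length trends removed. At an unadjusted p below 0.05 there were 2 of 6, MT1F and MTF1, both higher, against 28.0% of all genes in either direction and 22.0% higher. With a fold above 1.5 required as well, the count depended on the scale of the fold. It was 0 of 6 on log2(FPKM + 1), against 3.79% of all genes, and 2 of 6 by the ratio of mean FPKM (MT1F 1.59 and MTF1 1.5, the second just past the limit), against 6.86%. Of the 6 members, 3 had groups that did not overlap, all higher, against 35.1% of all genes in either direction and 27.0% higher. The median log2 fold change of the 6 was 0.22.

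**Figure D1:**
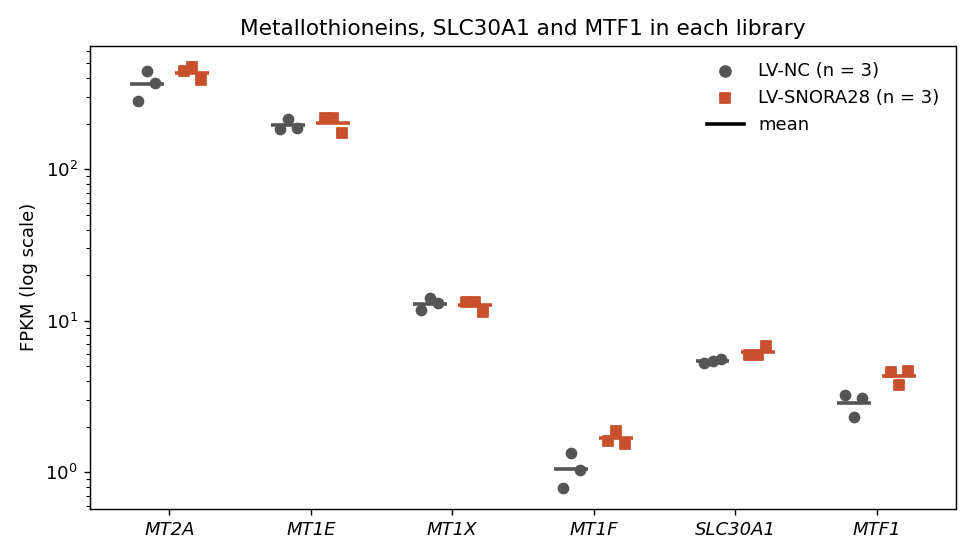
FPKM of 6 members (vertical axis, log scale) in the 3 LV-NC libraries (circles) and the 3 LV-SNORA28 libraries (squares), with group means as bars. MT2A (284.08 to 473.75 FPKM) and MT1E (173.88 to 218.57 FPKM) overlap between groups, while MT1F, SLC30A1 and MTF1 do not. MT1G, listed at 0 throughout, is not drawn.

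MT2A (ENSG00000125148; GRCh38 chromosome 16, 56608584 to 56609497, plus strand) encodes the main metallothionein isoform of most human tissues. It had FPKM of 284.08, 448.11 and 372.57 (LV-NC) against 443.17, 473.75 and 389.44 (LV-SNORA28). LV-NC replicate 1 was the lowest of the 6 and the other LV-NC libraries lay within or close to the range of LV-SNORA28, so the groups overlapped. The means were 368 ± 82.1 and 435 ± 42.7 FPKM (SD, n = 3 each). The log2 fold change, on the log2(FPKM + 1) scale used throughout, was 0.26 (SE 0.17; limma adjusted p = 0.365). Its 95% interval ran from -0.14 to 0.67, so a rise of up to 1.59-fold or a fall to 0.905 of the control level would both be compatible with these libraries. Without LV-NC replicate 1 the log2 fold change was 0.09, and without LV-NC replicate 2 it was 0.41.

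MT1E (ENSG00000169715; chromosome 16, 56625475 to 56627112, plus strand), a member of the MT1 branch of the same gene cluster, was the other abundant metallothionein. It had FPKM of 183.37, 215.16 and 188.3 (LV-NC) against 217.53, 218.57 and 173.88 (LV-SNORA28). The lowest value of all came from LV-SNORA28 replicate 3 and the groups overlapped. The log2 fold change was 0.05 (SE 0.11), with a 95% interval from -0.22 to 0.32 and an adjusted p of 0.805 in limma. It was slightly below 0 when LV-SNORA28 replicate 1 or replicate 2 was left out.

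MT1X (ENSG00000187193; chromosome 16, 56682470 to 56684196, plus strand), another MT1 isoform, had FPKM of 11.72, 14.16 and 13.06 (LV-NC) against 13.3, 13.24 and 11.41 (LV-SNORA28). No library stood apart and the groups overlapped. The log2 fold change of -0.03 (SE 0.09) had the narrowest interval of the metallothioneins, from -0.26 to 0.19, and an adjusted p of 0.850 in limma.

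MT1F (ENSG00000198417; chromosome 16, 56657731 to 56660698, plus strand) was the lowest metallothionein member above 0. It had FPKM of 0.79, 1.33 and 1.04 (LV-NC) against 1.61, 1.87 and 1.54 (LV-SNORA28). All LV-SNORA28 values were above all LV-NC values. The ratio of the mean FPKM values was 1.59, while the log2 fold change was 0.39 (SE 0.12), since the added 1 FPKM shrinks differences at this level. The adjusted p was 0.0953 in limma (unadjusted 0.0158), and 0.1 FPKM added in place of 1 gave a log2 fold change of 0.64 (limma adjusted p = 0.107). The depth behind these low values is unknown.

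MT1G (ENSG00000125144; chromosome 16, 56666730 to 56668065, minus strand), the only member of the chromosome 16 cluster on that strand among the 5, was listed at 0 in each library and was not tested. With no counts in the files, no upper limit can be set for it.

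The order of the metallothioneins was the same in every library: MT2A above MT1E, MT1E above MT1X, MT1X above MT1F, and MT1G at 0. With SLC30A1, MTF1 and MT1F following MT1X in the full order of the members, neighbours did not overlap over the 6 libraries. On the FPKM scale, which is per length, MT2A was at 1.55, 2.08 and 1.98 times the level of MT1E in LV-NC and at 2.04, 2.17 and 2.24 times in LV-SNORA28. The difference in this ratio was within the spread (1.87 ± 0.282 against 2.15 ± 0.101, SD, n = 3; exact two-sided permutation p = 0.2). The ratio of MT2A to MT1X was 24.2, 31.6 and 28.5 in LV-NC and 33.3, 35.8 and 34.1 in LV-SNORA28. These groups lay apart (exact permutation, two-sided, p = 0.1, which is the smallest that 3 against 3 libraries allow). Over the 4 ratios computed between members, the Benjamini-Hochberg adjusted p of this exact test was 0.2.

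The summed level of the 5 metallothionein members was 479.96, 678.76 and 574.97 FPKM in LV-NC and 675.61, 707.43 and 576.27 FPKM in LV-SNORA28. The means of 578 ± 99.4 and 653 ± 68.4 FPKM (SD, n = 3) differed by 75.2 FPKM, with overlap between the groups and an exact two-sided permutation p of 0.4. Scaled to the nuclear sum the difference was 64.1 FPKM (exact permutation p = 0.5). Without LV-NC replicate 1 it was 26.2 FPKM, and without LV-NC replicate 2 it was 126 FPKM. In a bulk sample, a shift in the number of cells that express a gene and a shift in RNA per cell cannot be told apart.

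MTF1 (ENSG00000188786; chromosome 1, 37809574 to 37859592, minus strand), the factor that reads zinc and turns on the metallothionein promoters, had FPKM of 3.23, 2.31 and 3.07 (LV-NC) against 4.56, 3.74 and 4.62 (LV-SNORA28). Every LV-SNORA28 library was above every control, and LV-NC replicate 2 was the lowest. The means were 2.87 ± 0.492 and 4.31 ± 0.492 FPKM (SD, n = 3). The log2 fold change of 0.46 (SE 0.12; 95% interval 0.17 to 0.75) was the largest of the 6 on this scale. MT1F was larger when 0.1 FPKM was added (0.64 against 0.58) and by the ratio of mean FPKM. MT1F was also larger without LV-NC replicate 2 (0.48 against 0.35) or LV-SNORA28 replicate 3 (0.4229 against 0.4158). The adjusted p of MTF1 in limma, 0.0669 (unadjusted 0.00808), was above the threshold. With the trend over GC content and transcript length removed, the log2 fold change was 0.38 and the adjusted p in limma 0.141. The transcript of a factor does not give its activity, which depends on zinc binding.

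SLC30A1 (ENSG00000170385; chromosome 1, 211571568 to 211579161, minus strand), the plasma membrane exporter, had FPKM of 5.27, 5.38 and 5.56 (LV-NC) against 5.95, 5.91 and 6.83 (LV-SNORA28). There was no overlap, and LV-SNORA28 replicate 3 was the highest library. The log2 fold change was 0.17 (SE 0.08; 95% interval -0.01 to 0.35; limma adjusted p = 0.193). With GC and length trends removed it was 0.04, and under quantile normalization 0.07. The ratio of SLC30A1 to MTF1 was 1.63, 2.33 and 1.81 in LV-NC and 1.3, 1.58 and 1.48 in LV-SNORA28, without overlap (exact two-sided permutation p = 0.1, the smallest possible). Over the ratios computed between members, the Benjamini-Hochberg adjusted p of this exact test was 0.2.

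**Figure D2:**
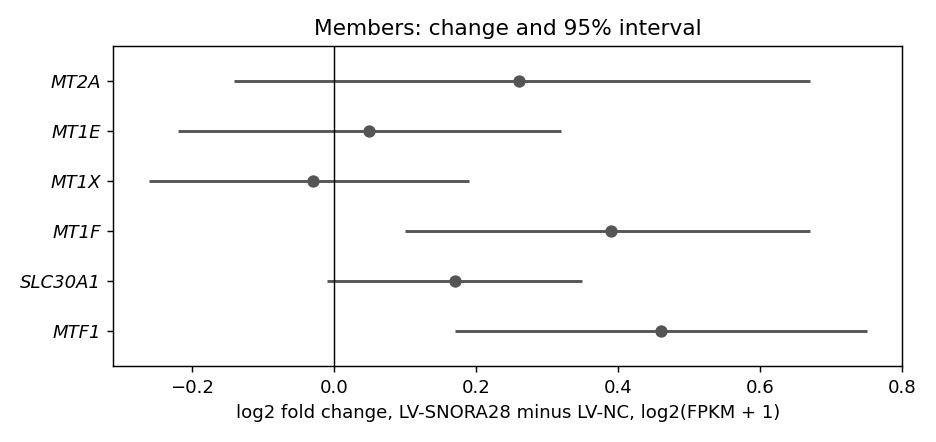
Log2 fold change of the 6 members tested (points) with 95% intervals from limma (bars), LV-SNORA28 minus LV-NC on the log2(FPKM + 1) scale. The intervals of MT2A, MT1E, MT1X and SLC30A1 include 0, those of MT1F and MTF1 do not, and no member had an adjusted p below 0.05.

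Metallothionein genes resemble each other, which limits how reads can be told apart. Of the 50-base stretches in annotated transcripts, 18.7% of those of MT1X, 16.45% of those of MT1G, 7.1% of those of MT1E, 4.48% of those of MT2A and 1.24% of those of MT1F also occur in an annotated transcript of another gene. For MTF1 it was 0.64%, and no stretch of SLC30A1 was shared. How the shared reads were assigned is not given in the sources used here.

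The rest of the family added little. The files list 21 metallothionein genes and pseudogenes, 16 of them in the chromosome 16 cluster (56565073 to 56684196). MT2A and MT1E together made up between 96.4% and 97.2% of the summed FPKM of the 21 per library. The 21 together took between 0.254% and 0.358% of the nuclear FPKM sum, and MT2A ranked between place 32 and place 66 among nuclear genes. At 0 in all 6 libraries were 9 of the 21, among them MT1A, MT1B, MT1M, the brain isoform MT3 and the squamous epithelium isoform MT4. Of the 16 that are no members, 3 passed the filter of a mean of at least 1 FPKM, named as pseudogenes (MT1P3, MT1DP and MT2P1). Of these 3, 0 had an adjusted or an unadjusted p below 0.05 in limma, beside 8.91% and 28.0% of all genes. MT1P3, named after its values were seen, had FPKM of 2.14, 2.14 and 1.4 (LV-NC) against 2.13, 2.36 and 3.14 (LV-SNORA28), with overlap. MT1P3 shares 50-base stretches with MT1E, MT1F, MT1G and MT1X, and overlaps MMP24OS on the opposite strand, so its level is uncertain. MT1P1, also named for its values, had FPKM of 0.01, 0 and 0 (LV-NC) against 0.16, 0.23 and 0.6 (LV-SNORA28), without overlap. It was under the filter and not tested, and it shares 50-base stretches with MT1G, MT1X and MT2A.

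Zinc enters the cytosol through the ZIP importers (SLC39A) and leaves it through the ZnT exporters (SLC30A). Of these 24 genes, 17 were tested, and 1 rose and 0 fell at an adjusted p below 0.05 in limma, which is 1 of 17 beside 8.91% of all genes. Their median log2 fold change was -0.04, against 0.09 over all genes. None of the 6 ZnT exporters tested, SLC30A1 included, passed, and none had an unadjusted p below 0.05 either (0 of 6). Of the 11 ZIP importers tested, 6 had an unadjusted p below 0.05, against 28.0% of all genes. Of these, SLC39A8, SLC39A9 and SLC39A14 were higher and SLC39A1, SLC39A7 and SLC39A11 lower in LV-SNORA28.

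The importer that rose was SLC39A14, known as ZIP14, a carrier of zinc, iron and manganese. It had FPKM of 17.95, 17.46 and 19.25 (LV-NC) against 24.39, 27.32 and 28.91 (LV-SNORA28). Every LV-SNORA28 library lay above every LV-NC library. The log2 fold change was 0.53 (SE 0.08; limma adjusted p = 0.0154). It did not pass without LV-NC replicate 2 (limma adjusted p = 0.0505), LV-SNORA28 replicate 2 (0.0651) or LV-SNORA28 replicate 3 (0.056).

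Among the other importers, SLC39A1 (log2 fold change -0.35), SLC39A7 (-0.15), SLC39A10 (-0.19) and SLC39A11 (-0.24) were below, and SLC39A8 (0.46) above, the range of LV-NC in each LV-SNORA28 library, and their limma adjusted p-values were 0.0861, 0.118, 0.207, 0.0742 and 0.0854. SLC39A8 shares its strand with an overlapping non-coding gene (0.823 and 1.5 FPKM on average). These genes are named after their values were seen. Groups did not overlap for 7 of the 11 importers tested, against 35.1% of all genes in either direction. SLC39A9, also named for its values, had FPKM of 2.21, 1.09 and 1.37 (LV-NC) against 12.04, 2.31 and 11.47 (LV-SNORA28). Its LV-SNORA28 replicate 2 lay next to the LV-NC range and far from the other LV-SNORA28 libraries, and the adjusted p was 0.0973 in limma. Without that library SLC39A9 passed. It overlaps ERH on the opposite strand (113 FPKM in LV-NC and 117 FPKM in LV-SNORA28 on average), and whether reads were counted by strand is not given in the sources used here.

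**Figure D3:**
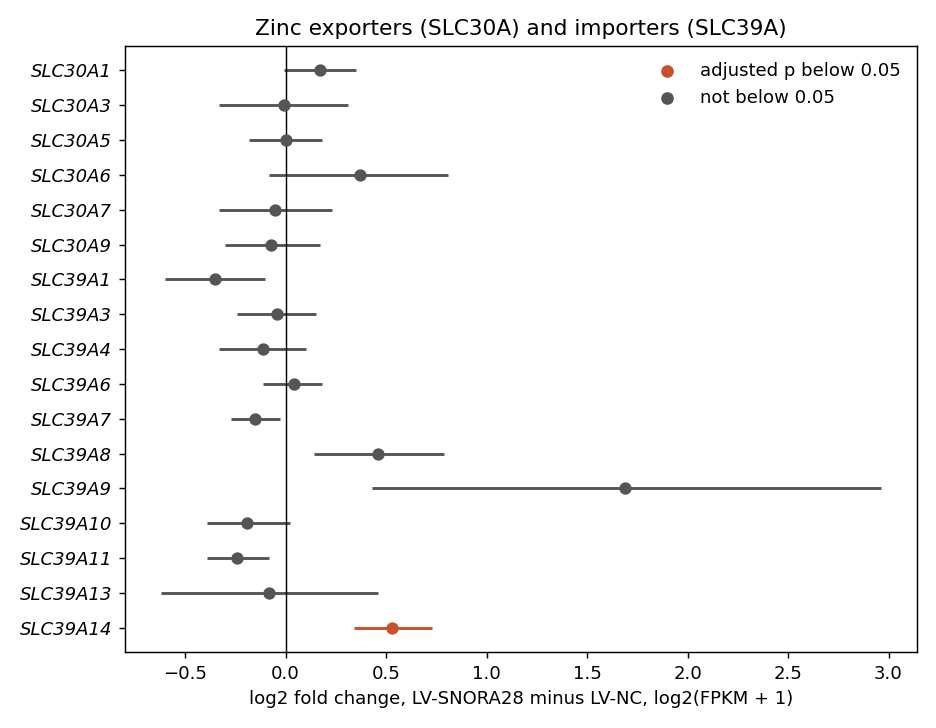
Log2 fold change (points) and 95% intervals from limma (bars) of the 6 exporters (SLC30A) and 11 importers (SLC39A) tested, LV-SNORA28 minus LV-NC. SLC39A14 at 0.53 is the gene with an adjusted p below 0.05, and SLC39A9 has the widest interval, from 0.43 to 2.96.

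Copper also binds metallothioneins. Of 10 genes for copper uptake, export and delivery, 8 were tested. Of these, 0 had an adjusted or an unadjusted p below 0.05 in limma, beside 8.91% and 28.0% of all genes. Their median log2 fold change was 0.09. The importer SLC31A1, named after its values were seen, had FPKM of 8.45, 8.93 and 10.4 (LV-NC) against 8.45, 7.97 and 9.33 (LV-SNORA28), and the groups overlapped.

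Heavy metals also act on heat shock genes and on genes for glutathione and redox repair. Of 11 genes of the metal and oxidative stress list, 11 were tested, 4 rose, 0 fell and 7 did not pass, with a median log2 fold change of 0.33. Over all genes, 8.91% were called and 6.81% were called higher. At an unadjusted p below 0.05 in limma there were 8 of 11, against 28.0% of all genes in either direction. Groups did not overlap for 8 of 11, against 35.1%. SRXN1, which repairs oxidised peroxiredoxins and is a target of NRF2, had FPKM of 25.39, 26.81 and 28.93 (LV-NC) against 59.77, 61.53 and 63.39 (LV-SNORA28). The groups were far apart, and the log2 fold change was 1.16 (SE 0.07; limma adjusted p = 0.00123). The other called genes were the heat shock genes HSPA1B (log2 fold change 0.97, adjusted p 0.00454), HSPH1 (0.55, 0.0155) and DNAJB1 (0.53, 0.0356), all in limma. HSPH1 lost its call in 3 of the 6 fits that left out 1 library and DNAJB1 in 5 of them, with adjusted p-values up to 0.0635 and 0.103 in limma. DNAJB1 did not pass with GC and length trends removed (limma adjusted p = 0.0582) or without a filter (0.0926) either.

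HSPA1B has a near-identical neighbour, HSPA1A, whose FPKM were 1.28, 1.15 and 33.56 (LV-NC) against 2.97, 4.01 and 4.45 (LV-SNORA28). Added together, both genes had FPKM of 63.14, 64.02 and 108.78 (LV-NC) against 144.12, 128.03 and 134.12 (LV-SNORA28), still without overlap. HMOX1, heme oxygenase and a classic cadmium response gene, had FPKM of 11.74, 13.65 and 13.4 (LV-NC) against 10.5, 10.72 and 11.45 (LV-SNORA28). These values lay lower in LV-SNORA28 without overlap, and the log2 fold change was -0.23 (limma adjusted p = 0.118). It was named for its values, as were GCLC (0.23, adjusted p 0.0760 in limma) and GCLM (0.30, 0.108), both for glutathione synthesis. TXNRD1 (0.42, adjusted p 0.344 in limma), SLC7A11 (0.33, 0.29) and NQO1 (0.15, 0.119), also named for their values, did not pass either.

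Glucocorticoids are another input to MT2A. Of 7 glucocorticoid response genes, 6 were tested, 1 rose, 0 fell and 5 did not pass, and the median log2 fold change was 0.31. The 1 of 6 stands beside 8.91% called over all genes. At an unadjusted p below 0.05 in limma there were 4 of 6, against 28.0% of all genes. Groups did not overlap for 4 of 6, against 35.1%. Besides FKBP5 these were TSC22D3 (log2 fold change 0.44), KLF9 (0.35) and DUSP1 (0.26), all higher. Their limma adjusted p-values were 0.0611, 0.106 and 0.0728. PER1 (0.06) and the receptor gene NR3C1 (-0.06) had overlapping groups. Apart from FKBP5, these genes were named after their values were seen. FKBP5, a co-chaperone of the glucocorticoid receptor that glucocorticoids induce, had FPKM of 4.61, 4.72 and 4.95 (LV-NC) against 9.79, 10.2 and 11.26 (LV-SNORA28). No LV-SNORA28 value came near the control range, and the log2 fold change was 0.99 (SE 0.07; limma adjusted p = 0.00271).

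**Figure D4:**
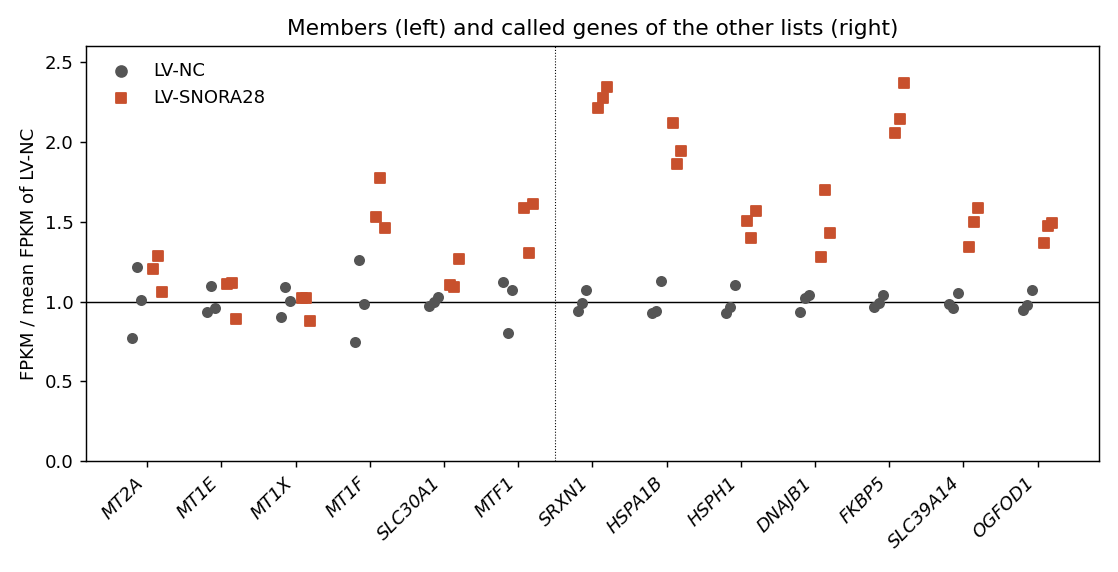
FPKM divided by the mean FPKM of LV-NC (vertical axis, linear from 0) in each library, for the 6 members (left of the dotted line) and for the called genes of the stress, glucocorticoid, zinc transporter and neighbour lists (right). Circles are LV-NC and squares LV-SNORA28. The called genes are shown because they passed the test, and SRXN1 (mean ratio 2.28) and FKBP5 (2.19) stand farthest from 1. Among the members, MT2A is at 1.18 and MT1E at 1.04. MT1F (1.59) and MTF1 (1.5) lie below HSPA1B (1.97) but above HSPH1 (1.49), DNAJB1 (1.47), SLC39A14 (1.47) and OGFOD1 (1.45).

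The chromosome 16 cluster was also set beside its neighbours. Of 12 protein-coding genes within 500 kb of the cluster, 8 were tested, 1 rose and 0 fell, beside 8.91% called over all genes, with a median log2 fold change of 0.12. OGFOD1, a prolyl hydroxylase of a ribosomal protein, had FPKM of 5.78, 5.98 and 6.53 (LV-NC) against 8.35, 8.99 and 9.09 (LV-SNORA28). Its groups did not overlap, and the log2 fold change was 0.47 (SE 0.07; limma adjusted p = 0.0161). It did not pass without LV-SNORA28 replicate 2 (limma adjusted p = 0.0695) or replicate 3 (0.0682). OGFOD1 overlaps NUDT21 and BBS2 on the opposite strand.

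Patterns most like those of 2 members were looked for by the root mean square difference of centred log2 values over the 6 libraries, which share all scaling effects. For MT2A, whose own values had a root mean square deviation of 0.245, the 5 nearest genes were NBPF11, HCFC1R1, SRP14, COX16 and RCCD1, at differences from 0.078 to 0.094. Like MT2A, these 5 were lowest in LV-NC replicate 1, which is part of the likeness they were picked for. SRP14, a subunit of the signal recognition particle, had FPKM of 51.58, 70.02 and 65.7 (LV-NC) against 70.1, 75.6 and 60.29 (LV-SNORA28). For SLC30A1, with a deviation of 0.106, they were MCU, COPS9, R3HDM1, CUL3 and TRUB1, at differences from 0.02 to 0.024. MCU, the pore of the mitochondrial calcium uniporter, had FPKM of 7.53, 7.43 and 7.94 (LV-NC) against 8.61, 8.4 and 9.51 (LV-SNORA28). Like SLC30A1 it was highest in LV-SNORA28 replicate 3, again part of the likeness it was picked for.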

How the data were processed

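Per the labels, poly(A)-selected RNA was converted to libraries by a dUTP method and read as paired ends. The authors deposited FPKM, 1 table per library. The submitters' processing notes name hg38, cutadapt 1.9, HISAT2 2.2.1, StringTie 2.1.6, DESeq2 and edgeR, with no role or order; filters and the annotation release are not given in the sources used here. Ensembl identifiers of 60401 of 60612 genes were matched to GENCODE release 44 (GRCh38). Depth is unknown, and precision rests on the spread between libraries.

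Groups came from the titles. A count model was planned only for count tables; for FPKM the test was log2(FPKM + 1), a filter at a mean of 1 FPKM or more (12076 genes), limma 3.58.1 with a mean-variance trend in R 4.3.3, two-sided, Benjamini-Hochberg over all genes, threshold 0.05. The fit was run on simulated data with log2 fold changes larger in size than those of the members on this scale. That run does not show how often changes as small as theirs would be found. Sums and ratios were compared by exact permutation in Python 3.11.15 and scipy 1.17.1. The members, lists and the naming rule were chosen with earlier results of these data known. The rule named all members, up to 6 genes per list with an adjusted p below 0.05, and the 5 genes nearest in pattern to MT2A and to SLC30A1. Alternatives were no trend, quantile normalization, nuclear scaling, other filters, a pseudocount of 0.1, GC and length trends removed, the replicate number as a block and each library left out.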

Additional observations from a re-analysis of the deposited data

How the results depend on the processing

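Depth is unknown, so members near 1 FPKM are the least certain. No member passed in any alternative except with the replicate number as a block, where 1 of 6 did (MTF1, log2 fold change 0.4593, adjusted p 0.0495 in limma). The replicate numbers are shared by the groups. Over the genes tested, the deviations of same-numbered libraries had correlations of -0.0441, 0.0914 and 0.00983 (replicates 1, 2 and 3). These show no broad pairing of the libraries, but cannot exclude a pairing that acts on some genes. With the block, 510 genes were called in all. The threshold of the study (unadjusted p below 0.05, fold above 1.5), applied after the data were seen, took 0 members and 458 genes with the fold on log2(FPKM + 1), beside 1076 in the report. With the ratio of mean FPKM as the fold, also chosen after the data were seen, it took 2 members (MT1F and MTF1), 2 zinc transporters (SLC39A8 and SLC39A9) and 828 genes. These 1076 became 397 without a filter (more genes tested), 650 (351 higher, 299 lower) with GC and length trends removed, and between 278 and 629 with 1 library left out (fewer samples). Quantile normalization split the calls into 451 higher and 375 lower genes, against 822 and 254, and moved the median log2 fold change to -0.00127. Zinc transporters called became 2 under quantile normalization and 2 with GC and length trends removed (SLC39A14 and SLC39A11, which was lower), and ranged from 0 to 1 with 1 library left out. The summed metallothionein difference ranged from 26.2 to 126 FPKM with 1 library left out and was 76.6 FPKM over all 21 metallothioneins (exact permutation p = 0.3). With 1 library left out, MT1E ranged from -0.0047 to 0.1595 and MT1X from -0.1001 to 0.0333. MT1E changed sign without LV-SNORA28 replicate 1 (-0.0013) or replicate 2 (-0.0047), and MT1X without LV-NC replicate 2 (0.0265) or LV-SNORA28 replicate 3 (0.0333). The cause was not tested. The other 77 of 82 single-gene values kept their direction and their side of the threshold. Alternatives that need counts (DESeq2, its size factors) could not be run on FPKM.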
